A study of Mus musculus with 6 samples.

Results

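The tumour necrosis factor (TNF) ligand and receptor superfamilies were examined in mesenchymal stromal cells (MSCs) flushed from mouse femurs and expanded in culture. Such cultures are enriched for fibroblast-like progenitors of bone, cartilage and fat, and marrow macrophages can persist in them. Members were the genes whose symbols follow the systematic Tnfsf and Tnfrsf numbering, plus 13 members with names of their own (Tnf, Lta, Ltb, Fas, Fasl, Cd40, Cd40lg, Cd27, Cd70, Ngfr, Ltbr, Edar and Eda2r). This gave 44 of the 55401 genes in the deposited table, 17 ligands and 27 receptors. RNA sequencing compared 3 libraries of Nlrp3 knockout cells (NLRP3-/-) with 3 libraries of wild-type (WT) cells, all of strain C57/B6J and all treated with lipopolysaccharide (LPS), a TLR4 agonist from the outer membrane of Gram-negative bacteria, at 3 µg/mL for 24 h. Both groups therefore carried the same LPS exposure, and the comparison was one of genotype under LPS. Nlrp3 encodes the sensor of an inflammasome, the complex that activates caspase-1. Whether replicates of a genotype were separate animals or cultures is not stated in the labels, so that p-values cover only library-to-library spread, possibly technical, and an effect of genotype and a difference between starting cultures cannot be told apart.

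The ligands are mostly type II membrane proteins that act as trimers, on the cell surface or after shedding. The receptors pass the signal on through death domains, which recruit TRADD or FADD and can lead to caspase-8 activation or RIPK3-dependent necroptosis, or through TRAF proteins, which lead to NF-κB and MAP kinases. In bone marrow the superfamilies are best known for TNF itself, an early product of LPS-stimulated macrophages, and for the RANK ligand, RANK and osteoprotegerin system that governs osteoclast formation.

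The libraries held between 53.2 and 66.3 M estimated counts (M, 1e6 counts), about 13.3 to 16.6 M fragments. The targeted gene Nlrp3 was at 0 FPKM in all 3 knockout libraries, against 2.76, 1.68 and 1.86 FPKM in the WT libraries (FPKM, fragments normalised to transcript length and to library size), with an exact two-sided permutation p of 0.1, the smallest that 3 libraries against 3 allow. Of 24 stromal markers 21 passed the expression filter, of which 4 were higher and 12 lower in knockout cultures. Thy1 (a mean of 11.8 FPKM in knockout against 134 in WT libraries, as for the pairs that follow), Pdgfra (2.96 against 30.2), Dcn (3.26 against 17.4) and Ly6a (46.1 against 188) had the largest differences on the log2(FPKM + 1) scale used for the tests below, all lower, while Nes (33.7 against 11.1 FPKM), Nt5e (2.35 against 0.183), Twist1 (19.3 against 11.6) and Cxcl12 (59.7 against 46.9) were higher. All 25 macrophage markers that passed, of 32 listed, were higher in knockout cultures. Their list summed to between 1853 and 2103 FPKM in knockout libraries and between 800.0 and 908 FPKM in WT libraries, and none of the 32 was at 0 in all 6 libraries. Lyz2 made up most of each sum, with means of 1145 FPKM in knockout and 463 FPKM in WT libraries. Of the markers under the filter, Mrc1, Cx3cr1 and Ccr2 had overlapping groups. Cd163, Mertk, Ptprc and Clec7a, also under it, had every knockout value above every WT value. Marco (47.2 against 10.2 FPKM), Clec4d (43.6 against 12.1), Adgre1 (134 against 44.0) and Cybb (32.5 against 10.2) were the 4 tested macrophage markers with the largest differences on that scale. Of 15 lymphoid markers none passed the filter and 9, Cd3e and Cd3d among them, were at 0 in every library. Of 11 granulocyte markers 3 passed, of which Csf3r (5.40 against 1.36 FPKM) and S100a8 (4.50 against 0.783) were higher and Camp (4.60 against 9.05) lower, and 4 were at 0 in all libraries. Cd74 (6.01 against 2.73 FPKM) and H2-Ab1 (3.59 against 2.12), the 2 tested of 11 dendritic cell and class II markers, were higher. Of 8 osteoclast markers 3 were tested and Acp5 (1.68 against 2.53 FPKM) was lower with an adjusted p of 0.0478 by limma, and of 8 endothelial markers the one tested, Eng (12.4 against 35.0 FPKM), was lower. Nt5e, S100a8 and the macrophage marker Aif1 (1.60 against 0.85 FPKM) reached 1 FPKM in the knockout libraries alone. They therefore had to be higher there to pass the filter. In such bulk cultures fewer cells of a type and less RNA per cell cannot be told apart.

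Tnf and 5 receptors were higher in the knockout cultures, and no member was called lower. The test was limma on log2(FPKM + 1) for genes that reached 1 FPKM in 3 or more libraries, with Benjamini-Hochberg adjustment over all 12136 genes tested and a threshold of 0.05, and fold changes below are knockout minus WT on that scale, a scale that shrinks the change of genes with low levels. Of the 44 members 16 passed this filter, 3 ligands and 13 receptors. Tnf, Tnfrsf21, Tnfrsf12a, Eda2r, Tnfrsf9 and Tnfrsf1b were called higher, 6 of 16, where 10.4% of all tested genes were called higher. None was called lower by limma, where 9.20% of all tested genes were called lower, and 2 (Tnfsf9 and Tnfsf12) were lower at an unadjusted p under 0.05. Estimated counts of 30 members were tested with edgeR's quasi-likelihood test, which called 8 higher (8.48% of all genes it tested) and 0 lower (8.12%), with 4 lower at an unadjusted p under 0.05. DESeq2 called 9 higher (8.35% of all genes) and 0 lower (7.74%), with 2 lower unadjusted. Limma without the filter, which held 40 members, called 8 higher (5.06% of all genes) and 0 lower (4.48%). Without knockout replicate 2 the count of members called higher by limma was 3 of 15 tested, namely Tnf, Tnfrsf12a and Tnfrsf9. In that fit 893 of 11776 genes were called higher. Tnfrsf21 passed the filter through its knockout values alone, so that it had to differ to be tested. The median log2 fold change of the 16 members was 0.14, beside 0.01 over all tested genes. The values of the groups did not overlap for 8 members with knockout above WT and for 3 with knockout below WT, which compares with 18.8% and 18.0% of all tested genes.

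**Figure D1:**
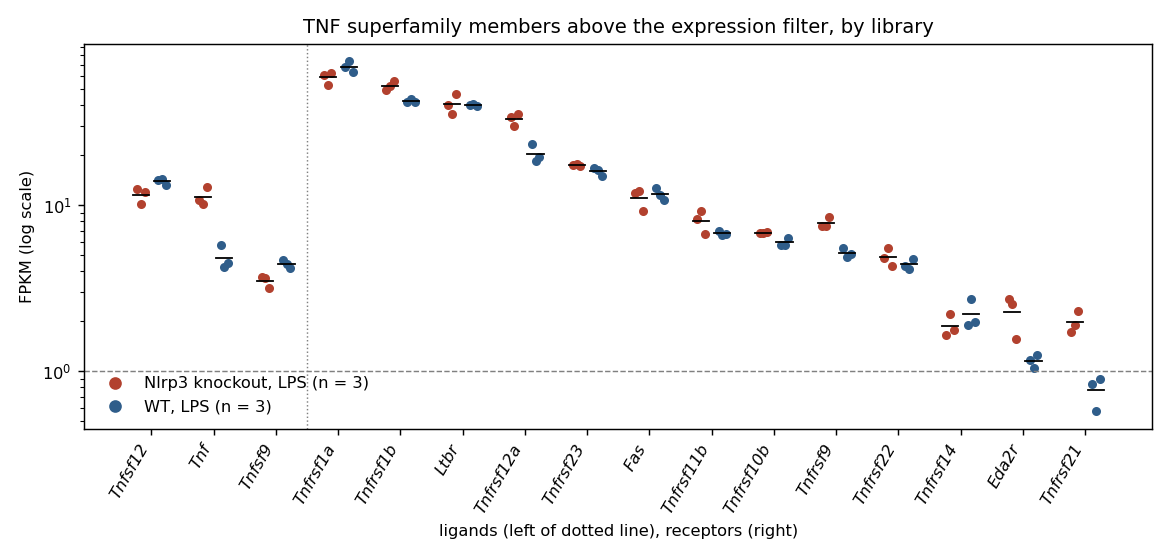
FPKM of the 16 tested members in each library on a log axis, ligands left and receptors right, with knockout libraries (red) left of WT libraries (blue), the black bar as the mean of 3 libraries and the dashed line at 1 FPKM. Tnf lies between 10.1 and 12.9 FPKM in knockout libraries and between 4.23 and 5.77 FPKM in WT libraries, while the knockout and WT points of Ltbr and Fas overlap.

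Tnf, the founding ligand, was the called ligand. Tnf (ENSMUSG00000024401, GRCm38 chr17:35199381-35202007, minus strand) had 10.7, 10.1 and 12.9 FPKM in the knockout libraries, against 5.77, 4.23 and 4.50 FPKM in the WT libraries. The lowest knockout library thus stood above the highest WT library. The log2 fold change was 1.07 ± 0.13 (SE, adjusted p = 0.0018 by limma), with means of 11.3 ± 1.47 and 4.83 ± 0.822 FPKM (SD, n = 3 each), a ratio of 2.33. The call held under every alternative that was run, including the fits with 1 library left out. Macrophages are a main source of TNF under LPS, and the macrophage markers given above were higher in the same libraries. Of the 25 tested macrophage markers 14 had a smaller and 11 a larger log2 fold change than Tnf, over a range of 0.49 to 2.11 and with a median of 0.95. Their part in the difference of Tnf was not tested.

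The promoter of Tnf is shown because Tnf had the highest fold change of the 16 tested members on the log2(FPKM + 1) scale, read from RefSeq (GRCm38.p6), from 250 bases before to 50 bases after the start site. Capitals mark TATAAA, the core of a TATA box, which begins 29 bases before the start site.
Tnf promoter, chr17:35201958-35202257, minus strand: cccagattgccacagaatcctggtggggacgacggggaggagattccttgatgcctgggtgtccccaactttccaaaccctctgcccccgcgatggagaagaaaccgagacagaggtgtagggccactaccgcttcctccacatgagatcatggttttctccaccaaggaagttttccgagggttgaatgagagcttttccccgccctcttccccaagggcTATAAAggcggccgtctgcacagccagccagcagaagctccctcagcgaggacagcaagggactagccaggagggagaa
TATAAA was looked for after the sequences had been seen and is held on either strand by 13.6% of the 32851 promoters of the table. The letters GGGA and TTCC with any 2 bases between them, which resemble sites bound by NF-κB, were searched on both strands. They were found in 1.47% of all promoters, in 1 of 38 promoters of 34 members, that of Ltb, and in none of 7 promoters of the 6 members called higher. No match says only that these letters are not in this window.

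The other ligands that passed the filter were Tnfsf12 and Tnfsf9. Tnfsf12, which encodes TWEAK, the ligand of the receptor encoded by Tnfrsf12a, had 12.6, 10.1 and 12.1 FPKM in knockout libraries, against 14.2, 14.3 and 13.2 FPKM in WT libraries (-0.25, 95% interval -0.48 to -0.03, adjusted p = 0.119 by limma). Tnfsf9, the ligand of the costimulatory receptor 4-1BB, had 3.69, 3.62 and 3.17 FPKM in knockout libraries, against 4.68, 4.40 and 4.18 FPKM in WT libraries (-0.27, 95% interval -0.47 to -0.07, adjusted p = 0.0672). Every knockout value of both ligands lay below every WT value, but neither passed the adjusted test. Both overlap other annotated genes. Tnfsf12 shares its locus with the read-through gene Tnfsfm13 on the same strand (2.24, 2.18 and 3.00 FPKM in knockout and 2.49, 2.23 and 2.49 FPKM in WT libraries) and with an antisense gene, and Tnfsf9 lies opposite Gm11110 (0.74, 0.36 and 0.26 FPKM in knockout and 0.71, 0.81 and 1.02 FPKM in WT libraries). The sources used here do not say whether counting was stranded, and reads of these overlapping genes may not be separated. Tnf took between 37.1% and 43.8% of the summed FPKM of the 17 ligands in knockout libraries and between 17.2% and 22.3% in WT libraries, and Tnfsf12 between 39.6% and 43.6% in knockout libraries and between 55.0% and 58.3% in WT libraries. Tnfsf12 thus held the largest share in each WT library, and the shares of both ligands overlapped among the knockout libraries.

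The receptors of TNF itself had fold changes of opposite sign. Tnfrsf1b, which encodes the TRAF-binding TNF receptor found mainly on blood, endothelial and some stromal cells, had 49.4, 52.3 and 56.3 FPKM in knockout libraries, against 42.2, 43.4 and 41.96 FPKM in WT libraries. The knockout values all lay above the WT values, with a log2 fold change of 0.30 ± 0.07 (SE, adjusted p = 0.0257 by limma). This call is near the threshold: it was lost without any 1 of the WT libraries or without knockout replicate 2 (adjusted p from 0.0612 to 0.106). It was also lost in the edgeR fit given above (0.0531) and in edgeR without a filter (0.0713). The call was kept in edgeR with DESeq2 size factors (0.0422), in DESeq2 (0.0363) and in limma with the replicate number as a block (0.0467). Tnfrsf1a, which encodes the ubiquitous death-domain receptor of TNF, had 60.9, 53.4 and 62.6 FPKM in knockout libraries, against 68.0, 73.6 and 63.8 FPKM in WT libraries. These values did not overlap either, with knockout below WT, but the difference did not pass (-0.21, 95% interval -0.43 to 0.003, adjusted p = 0.166). Tnfrsf1b made up between 44.8% and 49.5% of the summed FPKM of both receptors in knockout libraries and between 37.1% and 39.7% in WT libraries, so that the shares of the groups did not overlap. Tnfrsf1b is expressed by macrophages, and the macrophage markers were higher in the same libraries; their part in this share was not tested.

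The promoters of both TNF receptors are shown because the receptors share a ligand and differed in the sign of their fold change. Capitals mark TTCNNNGAA, the letters of a STAT-type site, which reads the same on both strands and is held by 8.3% of all promoters.
Tnfrsf1b promoter, chr4:145246821-145247120, minus strand: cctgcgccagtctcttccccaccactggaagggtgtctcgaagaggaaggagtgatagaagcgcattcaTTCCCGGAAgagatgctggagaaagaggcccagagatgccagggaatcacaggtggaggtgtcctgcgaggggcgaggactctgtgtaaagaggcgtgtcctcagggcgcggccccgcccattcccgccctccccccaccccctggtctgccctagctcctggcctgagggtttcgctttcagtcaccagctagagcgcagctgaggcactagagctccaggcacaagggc
Tnfrsf1a promoter, chr6:125349473-125349772, plus strand: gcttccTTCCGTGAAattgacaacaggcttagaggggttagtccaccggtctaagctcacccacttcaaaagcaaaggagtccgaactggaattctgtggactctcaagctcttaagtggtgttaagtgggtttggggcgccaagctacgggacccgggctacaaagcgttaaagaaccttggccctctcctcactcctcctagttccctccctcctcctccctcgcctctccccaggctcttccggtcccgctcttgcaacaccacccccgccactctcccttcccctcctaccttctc
The match began 181 bases before the start site in Tnfrsf1b and 244 bases before it in Tnfrsf1a. These letters were thus in the window of both receptors, whatever the sign of their fold change. They were found in 9 of 38 member promoters (23.7%), among them 2 of 7 promoters of members called higher and 2 of 5 promoters of other tested members.

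Tnfrsf12a and Tnfrsf9, receptors that bind TRAFs and have no death domain, were higher in all 3 knockout libraries. Tnfrsf12a, which encodes Fn14, an inducible receptor of connective tissue cells, had 34.1, 30.0 and 35.4 FPKM in knockout libraries, against 23.5, 18.4 and 19.5 FPKM in WT libraries. The log2 fold change was 0.68 ± 0.11 (SE, adjusted p = 0.00635 by limma) and the ratio of means 1.62. Its ligand Tnfsf12, given above, was not called and had a negative fold change. Tnfrsf9, which encodes 4-1BB, had 7.47, 7.44 and 8.49 FPKM in knockout libraries, against 5.48, 4.88 and 5.09 FPKM in WT libraries. The log2 fold change was 0.52 ± 0.08 (SE, adjusted p = 0.00541) and the ratio of means 1.51, while its ligand Tnfsf9 had a negative fold change that was not called. Both receptor calls held under every alternative that was run. Tnfrsf9 overlaps Camta1 on the opposite strand (0.36, 0.35 and 0.28 FPKM in knockout and 0.34, 0.40 and 0.39 FPKM in WT libraries). Reads of this overlap may not be separated, as for the ligands above.

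Tnfrsf9 has a second listed start site whose promoter held matches to 2 of the motifs searched, and it is shown as the one promoter of a called member with more than 1 match to them. Capitals mark TTCNNNGAA, which begins 136 bases before the start site, and TGANTCA, the letters of an AP-1 site, which begins 15 bases before it. These matches do not overlap.
Tnfrsf9 promoter, chr4:150927749-150928048, plus strand: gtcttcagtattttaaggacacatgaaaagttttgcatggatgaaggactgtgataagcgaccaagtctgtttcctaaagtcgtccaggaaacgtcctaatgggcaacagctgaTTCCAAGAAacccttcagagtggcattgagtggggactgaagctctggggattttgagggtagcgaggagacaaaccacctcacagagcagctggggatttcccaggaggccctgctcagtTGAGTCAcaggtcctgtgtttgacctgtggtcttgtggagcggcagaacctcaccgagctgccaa
TGANTCA reads the same on both strands and is held by 7.81% of all promoters, and it was found in 7 of 38 member promoters, those of 6 genes, since the overlapping promoters of Tnfsf13b hold the same match.

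Eda2r and Tnfrsf21 were the remaining called receptors, both at low levels. Eda2r, the X-linked receptor of the A2 isoform of ectodysplasin, had 2.71, 2.53 and 1.56 FPKM in knockout libraries, against 1.17, 1.04 and 1.25 FPKM in WT libraries. Knockout replicate 3 lay closest to the WT values. The log2 fold change of 0.58 ± 0.15 (SE) passed narrowly (adjusted p = 0.0401 by limma), and did not pass without knockout replicate 1 or 2 or without any 1 of the WT libraries (0.0959 to 0.13) or without the expression filter (0.0961), whereas edgeR and DESeq2 called it (0.0196 and 0.000392). The ligand gene Eda, looked up after these values were seen, stood at 0.08 FPKM in each knockout library, against 0.19, 0.14 and 0.22 FPKM in WT libraries. Tnfrsf21, which encodes death receptor 6, had 1.72, 1.9 and 2.31 FPKM in knockout libraries, against 0.83, 0.57 and 0.90 FPKM in WT libraries (0.75 ± 0.12 SE, adjusted p = 0.00516). It did not enter the test when a knockout library was left out, because of the filter, and edgeR, whose filter it passed on counts, gave an adjusted p of 0.00558. The ratio of its mean FPKM values was 2.58, larger than the 2.33 of Tnf.

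**Figure D2:**
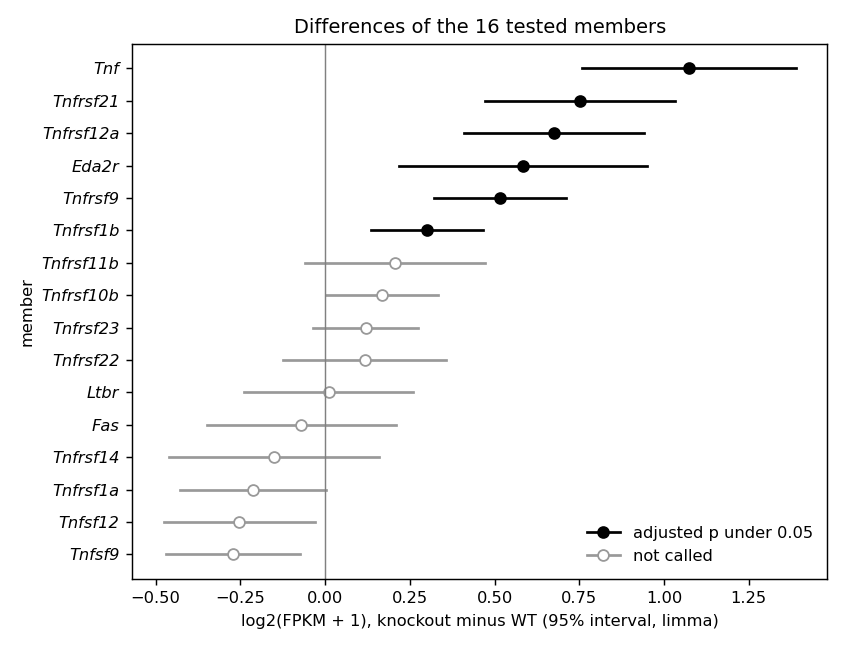
Difference of each tested member on the log2(FPKM + 1) scale, knockout minus WT, with its 95% interval from limma. The 6 filled points, Tnfrsf1b at 0.30 to Tnf at 1.07, passed the adjusted threshold, and the 10 open points did not.

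The other death-domain receptors that passed the filter were Fas and Tnfrsf10b. Fas, the receptor of Fas ligand and a trigger of apoptosis, had 11.8, 12.2 and 9.27 FPKM in knockout libraries, against 12.6, 11.6 and 10.8 FPKM in WT libraries, and the groups overlapped (-0.07, 95% interval -0.35 to 0.21). Tnfrsf10b, the mouse death receptor of TRAIL, had 6.77, 6.83 and 6.85 FPKM in knockout libraries, against 5.77, 5.74 and 6.37 FPKM in WT libraries. All its knockout values lay above the WT values, but the difference of 0.17 did not pass (95% interval 0.003 to 0.33, adjusted p = 0.153 by limma). Ltbr, the lymphotoxin beta receptor that drives the non-canonical NF-κB pathway, had 40.3, 35.3 and 46.5 FPKM in knockout libraries, against 40.1, 41.03 and 39.4 FPKM in WT libraries (0.01, 95% interval -0.24 to 0.26). Tnfrsf14, the herpesvirus entry mediator and a receptor of LIGHT, had 1.64, 2.20 and 1.76 FPKM in knockout libraries, against 1.9, 2.7 and 1.98 FPKM in WT libraries (-0.15, 95% interval -0.46 to 0.16). The intervals of Fas, Ltbr and Tnfrsf14 include 0, and those of Fas and Ltbr exclude a change of 0.5 in either direction on the log2(FPKM + 1) scale.

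Of the receptors listed as decoys or as poor in signalling, those that passed the filter were not called, while Tnfrsf26, which lay under it, is given further on with its calls. Tnfrsf23 and Tnfrsf22, mouse decoy receptors of TRAIL that lie side by side on chromosome 7, had 17.4, 17.7 and 17.2 FPKM and 4.80, 5.50 and 4.27 FPKM in knockout libraries. In WT libraries Tnfrsf23 had 16.7, 16.2 and 15.0 FPKM and Tnfrsf22 had 4.27, 4.15 and 4.75 FPKM. Their log2 fold changes of 0.12 and 0.12 had 95% intervals of -0.04 to 0.27 and -0.12 to 0.36. The values of these tandem relatives are uncertain where the authors' counting could split reads between similar sequences. Tnfrsf11b, which encodes osteoprotegerin, the secreted decoy of RANK ligand, had 8.24, 9.16 and 6.69 FPKM in knockout libraries, against 6.99, 6.62 and 6.74 FPKM in WT libraries. Knockout replicate 3 fell inside the WT range, and the difference of 0.21 did not pass (95% interval -0.06 to 0.47, adjusted p = 0.27 by limma), but passed without that library (0.32, adjusted p = 0.0328).

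The partners of osteoprotegerin lay under the filter. Tnfsf11, the RANK ligand, had 0.49, 0.48 and 0.35 FPKM in knockout libraries, against 0.57, 0.97 and 0.82 FPKM in WT libraries, from 78, 69 and 53 estimated counts in knockout and 84, 159 and 109 in WT libraries. The groups did not overlap, with knockout below WT, but the difference did not pass in edgeR (adjusted p = 0.0952) or DESeq2 (0.119). Tnfrsf11a, which encodes RANK, the receptor on osteoclast precursors, had 0.79, 0.75 and 0.80 FPKM in knockout libraries, against 0.29, 0.49 and 0.40 FPKM in WT libraries, and was called higher in edgeR (log2 fold change 0.96, adjusted p = 0.0227) and in limma without the filter (adjusted p = 0.0442). The ratio of osteoprotegerin to RANK ligand FPKM was 16.8, 19.1 and 19.1 in knockout libraries, against 12.3, 6.82 and 8.22 in WT libraries, so that the ratio was higher in each knockout library. Its denominator rests on at most 159 estimated counts per library. RANK is expressed by cells of the macrophage lineage, whose markers were higher in the same libraries, and their part in these values was not tested.

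**Figure D3:**
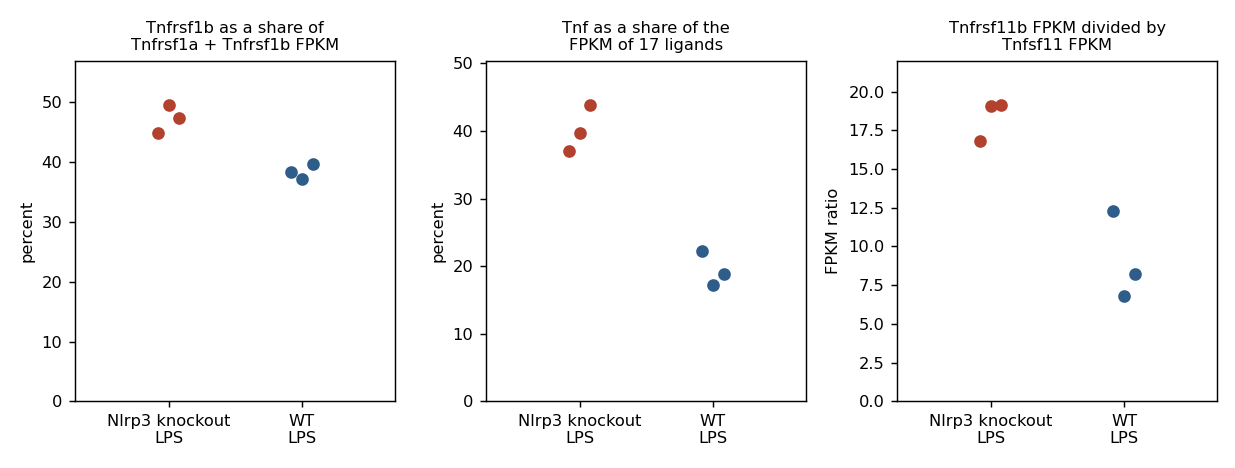
Tnfrsf1b as a percentage of the summed FPKM of Tnfrsf1a and Tnfrsf1b (left), Tnf as a percentage of the summed FPKM of the 17 ligands (middle) and the FPKM ratio of Tnfrsf11b to Tnfsf11 (right), 1 point per library, knockout left and WT right. In each panel the 3 knockout points lie above the 3 WT points, as given in the text with no test.

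Among members under the filter with signal in both groups, the largest ratio belonged to Tnfsf15, which encodes TL1A, a ligand made by endothelial and myeloid cells. It had 0.62, 0.65 and 0.38 FPKM in knockout libraries, from 254, 247 and 147 estimated counts, against 0, 0.02 and 0 FPKM in WT libraries, from 0, 8 and 0 estimated counts. Since 1 fragment gives about 4 estimated counts, this is about 162 fragments in knockout and 2 in WT libraries, a ratio of 79.8 with a 95% counting interval of 21.7 to 665 that covers counting error only. edgeR called it (adjusted p = 0.00246), but it passed edgeR's own filter through its knockout counts alone, so that it had to differ to enter that fit. It was also called by edgeR without a filter (adjusted p = 0.00349) and by limma without the filter (0.00541). Of the 7 endothelial markers under the filter Tek had 0.02, 0 and 0 FPKM in knockout libraries, against 0.59, 0.42 and 0.39 FPKM in WT libraries, and the others, Cdh5 and Pecam1 among them, had at most 0.1 FPKM in any library. The macrophage markers were higher in the knockout libraries. The part of either cell type in the difference of Tnfsf15 was not tested. Tnfrsf25, the death-domain receptor of TL1A, had 0.29, 0.23 and 0.21 FPKM in knockout libraries, against 0.01, 0.15 and 0.07 FPKM in WT libraries, and did not pass in edgeR (adjusted p = 0.253).

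Of the other members under the filter Tnfrsf26 was called. Tnfrsf26, a mouse receptor gene next to Tnfrsf22 on chromosome 7 and listed with the decoy receptors, had 0.63, 0.63 and 0.67 FPKM in knockout libraries, against 0.14, 0.24 and 0.21 FPKM in WT libraries. The log2 fold change was 1.68 in edgeR (adjusted p = 0.00577) and 0.46 in limma without the filter (adjusted p = 0.00548). It is uncertain for the same reason as its neighbours, and it overlaps a gene on the opposite strand. Tnfrsf19, which encodes TROY, had 0.12, 0.12 and 0.11 FPKM in knockout libraries, against 0.01, 0.03 and 0.07 FPKM in WT libraries, and Tnfsf13b, the B cell factor BAFF, had 0.03, 0.03 and 0 FPKM in knockout libraries, against 0.09, 0.11 and 0.05 FPKM in WT libraries. Neither passed in edgeR (adjusted p = 0.128 and 0.25). In all, 5 members under the filter had every knockout value above every WT value and 2 had every knockout value below, out of 24 with any signal. For all genes under the filter with any signal these shares were 7.01% and 6.84%.

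**Figure D4:**
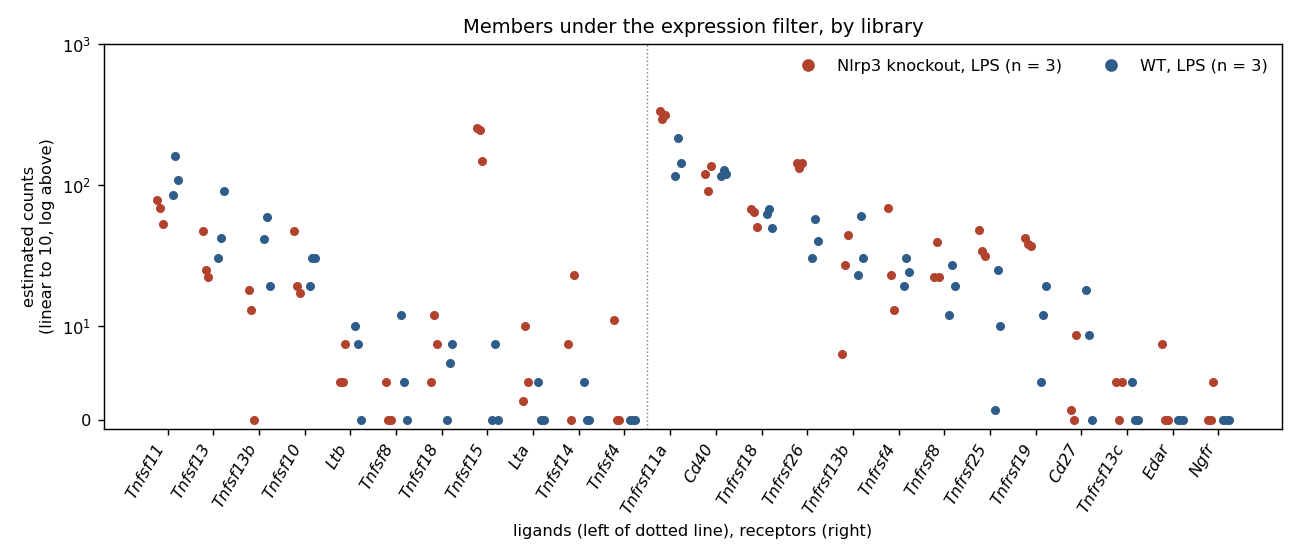
Estimated counts per library of the 24 members under the filter with any signal, ligands left and receptors right, knockout (red) left of WT (blue), on an axis that is linear to 10 and logarithmic above. Tnfsf15 stands between 147 and 254 counts in knockout libraries and at 0, 8 and 0 in WT libraries, while most members overlap.

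Members typical of lymphocytes were near or at 0. Fasl, Cd70, Cd40lg and Tnfrsf17, which encodes the plasma cell receptor BCMA, were at 0 in all 6 libraries, where 3 fragments over the 3 libraries of a group, about 0.0663 per M fragments in knockout and 0.0673 in WT, would have been the limit of detection. Lta and Ltb, the lymphotoxins, reached at most 0.11 FPKM, and Cd27, the receptor of Cd70, at most 0.11 FPKM. Edar and Ngfr, receptors of epidermal appendages and of neurotrophins, had signal in 1 knockout library each, 0.03 and 0.02 FPKM. The costimulatory receptors Tnfrsf4 (OX40), Tnfrsf18 (GITR) and Tnfrsf8 (CD30) averaged 0.357, 0.58 and 0.117 FPKM in knockout libraries and 0.257, 0.583 and 0.08 FPKM in WT libraries, and their ligands Tnfsf4, Tnfsf18 and Tnfsf8 stayed below 0.1 FPKM. Cd40, the receptor through which T cells license antigen-presenting cells, had 0.49, 0.40 and 0.61 FPKM in knockout libraries, against 0.52, 0.50 and 0.59 FPKM in WT libraries. The B cell receptors Tnfrsf13b (TACI) and Tnfrsf13c averaged 0.137 and 0.02 FPKM in knockout libraries and 0.197 and 0.01 FPKM in WT libraries. The ligand Tnfsf13 (APRIL) averaged 0.27 FPKM in knockout libraries and 0.51 FPKM in WT libraries, with WT replicate 3 highest at 0.92. Tnfsf10, which encodes TRAIL, averaged 0.077 FPKM in knockout libraries and 0.073 FPKM in WT libraries, and Tnfsf14 (LIGHT) 0.083 FPKM in knockout libraries and 0.01 FPKM in WT libraries. None of the members in this paragraph was called in edgeR where it was tested. With 15 lymphoid markers summing to between 0.19 and 0.27 FPKM in knockout and between 0.40 and 0.55 FPKM in WT libraries, the defining genes of lymphocytes were near 0 in both groups.

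Across the family the order of levels was led by the same receptors in both groups. In knockout libraries the mean FPKM was 59.0 ± 4.89 for Tnfrsf1a, 52.7 ± 3.47 for Tnfrsf1b, 40.7 ± 5.63 for Ltbr and 33.2 ± 2.84 for Tnfrsf12a (SD, n = 3). The same receptors led in WT libraries, at 68.4 ± 4.90 for Tnfrsf1a, 42.5 ± 0.788 for Tnfrsf1b, 40.2 ± 0.831 for Ltbr and 20.5 ± 2.67 for Tnfrsf12a. They held between 71.3% and 76.5% of the summed receptor FPKM in knockout libraries and between 74.8% and 75.9% in WT libraries. In knockout libraries Tnfrsf1a and Tnfrsf1b had overlapping values, as had Ltbr and Tnfrsf12a, whereas in WT libraries Tnfrsf1b lay just above Ltbr with no overlap. The summed receptor FPKM was 251, 240 and 263 in knockout libraries, against 232, 233 and 220 FPKM in WT libraries, and the summed ligand FPKM was 28.9, 25.5 and 29.5 in knockout libraries, against 25.9, 24.6 and 23.9 FPKM in WT libraries.

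Genes that act downstream of the receptors were mostly not called. Of 42 signalling genes listed, 41 were tested, of which 2 were higher (4.88%, against 10.4% of all tested genes) and 2 were lower (4.88%, against 9.20%), with a median log2 fold change of 0.04. Ripk3, the kinase that drives necroptosis, had 4.93, 4.29 and 4.52 FPKM in knockout libraries, against 18.6, 16.4 and 19.4 FPKM in WT libraries (-1.78 ± 0.09 SE, adjusted p = 4.09e-05 by limma). Mlkl, which executes necroptosis downstream of RIPK3, had 21.7, 21.2 and 21.1 FPKM in knockout libraries, against 27.0, 30.7 and 28.7 FPKM in WT libraries (-0.42 ± 0.07, adjusted p = 0.00631). Both thus fell in the knockout cultures, with no overlap between groups. Tnfaip3, the NF-κB-induced deubiquitinase A20 that limits TNF signalling, had 10.0, 11.1 and 9.19 FPKM in knockout libraries, against 2.92, 3.11 and 6.45 FPKM in WT libraries (1.17 ± 0.25, adjusted p = 0.0185). That call was lost without WT replicate 1 or 2 or knockout replicate 1 or 2 (0.0626 to 0.0664). Ikbkg, which encodes NEMO, the scaffold of the IκB kinases, had 7.12, 4.89 and 7.58 FPKM in knockout libraries, against 3.06, 3.53 and 3.11 FPKM in WT libraries (0.81 ± 0.15, adjusted p = 0.0111), and missed the threshold without knockout replicate 1 (0.0505). The number of signalling genes called higher was 7 without knockout replicate 3 and 1 without knockout replicate 1 or without WT replicate 1 or 2, so that this count rests on single libraries. The number of all tested genes called higher moved in the same fits. It was 1264 with all libraries, 1464 without knockout replicate 3 and 705 without knockout replicate 1. Without WT replicate 1 it was 843, and without WT replicate 2 it was 895.

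Other common targets of TNF receptor signalling were not called. Traf1 averaged 1.6 ± 0.486 FPKM in knockout and 0.94 ± 0.135 FPKM in WT libraries (adjusted p = 0.126 by limma), and was called higher by DESeq2 (0.0201) and without knockout replicate 1 (0.0265). Birc3, which encodes the ubiquitin ligase cIAP2, averaged 7.85 FPKM in knockout and 8.53 FPKM in WT libraries, Nfkb2 25.8 FPKM in knockout and 25.9 FPKM in WT libraries, and Relb 9.90 FPKM in knockout and 11.2 FPKM in WT libraries. The adaptors Tradd and Fadd averaged 5.90 and 3.64 FPKM in knockout libraries and 6.81 and 4.12 FPKM in WT libraries, with every knockout value below every WT value, and did not pass (adjusted p = 0.171 and 0.265). Of the 42 listed signalling genes, 9 had every knockout value above every WT value and 8 had every knockout value below. Over all tested genes these shares were 18.8% and 18.0%. Macrophages express Tnfaip3 and Traf1, and the macrophage markers were higher in the same libraries; their part in these values was not tested.

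**Figure D5:**
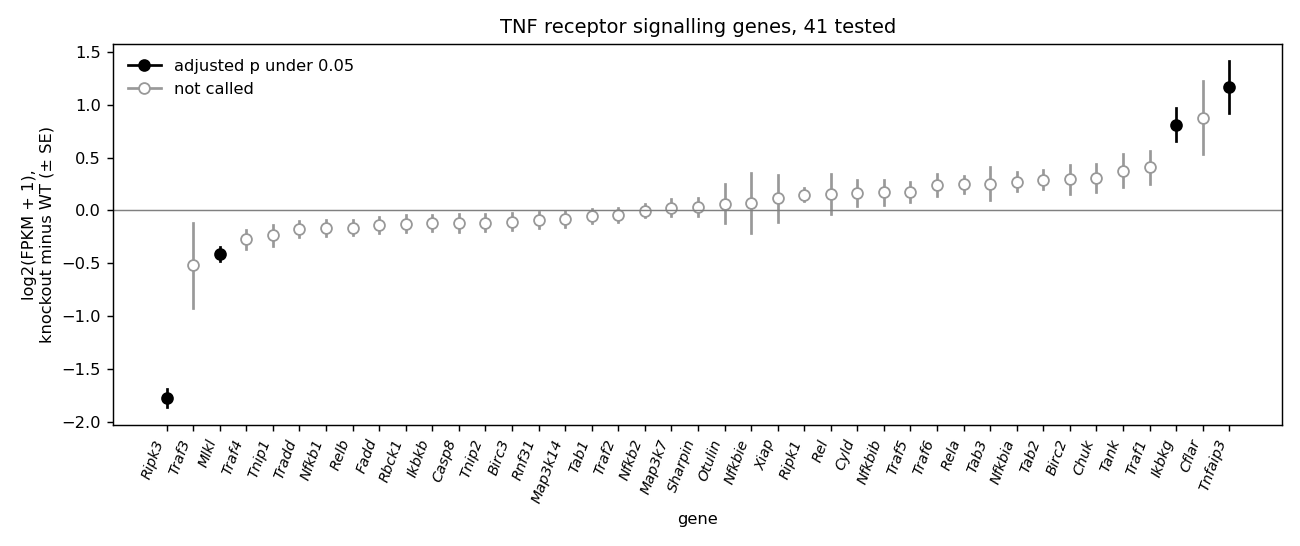
Difference of the 41 tested TNF receptor signalling genes on the log2(FPKM + 1) scale, knockout minus WT, with the SE from limma, in order of size. Ripk3 at -1.78 and Mlkl at -0.42 were called lower and Ikbkg at 0.81 and Tnfaip3 at 1.17 higher, shown as filled points.

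The shedding of TNF and its receptors depends on the protease ADAM17. Of 6 genes listed for it, Timp3, a tissue inhibitor of metalloproteinases that also inhibits ADAM17, rose to 133, 135 and 127 FPKM in knockout libraries, against 15.6, 16.5 and 14.6 FPKM in WT libraries (3.00 ± 0.07 SE, adjusted p = 2.98e-06 by limma). Rhbdf1, one of the inactive rhomboid proteins that carry ADAM17 to the cell surface, fell to 7.20, 7.81 and 7.62 FPKM in knockout libraries, against 9.94, 9.35 and 10.1 FPKM in WT libraries (-0.34 ± 0.07, adjusted p = 0.0146), a call that was lost without WT replicate 1 or 3 or knockout replicate 1 (0.0651 to 0.0712). Adam17 itself averaged 9.89 FPKM in knockout and 10.3 FPKM in WT libraries (adjusted p = 0.749). Adam10, Rhbdf2 and Frmd8 were not called. RNA levels do not measure shed protein.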

How the data were processed

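Polyadenylated RNA of 6 libraries was analysed, 3 Nlrp3 knockout and 3 WT, all with LPS. Per the submitters' processing notes the tools were cutadapt 1.9, HISAT2 2.0.4 and StringTie 1.3.4d with build GRCm38. The counting step, annotation release, strand setting and filters are not named in those sources. The authors deposited FPKM values to 2 decimals and, per the file headers, counts. The deposited counts are whole numbers but behave as estimated counts: 44.4% of values from 1 to 16 were 4, 8, 12 or 16, against 25% if all were as frequent, so that 1 fragment of 2 reads of 150 bases gives about 4 counts, an inference from the values.

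The main test was limma 3.58.1 in R 4.3.3 (intensity trend, group as the one term, two-sided) on log2(FPKM + 1). edgeR 4.0.16 (quasi-likelihood) and DESeq2 1.42.0 were run on the rounded estimated counts as alternatives, besides another pseudocount, other filters, TMM scaling, a replicate block and each library left out. The FPKM test was kept as the main one because the counts are estimates from the same coverage. The limma step was tested on simulated counts with the same dispersion (scatter between libraries) for every gene and no differences between cultures. That setting is simpler than these data, so the simulation does not show how the test behaves on these libraries. Replicate numbers come from the titles, which name days 1 to 3, while another label gives day 1 throughout.

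All members were named, with full values for those called or with a mean of at least 1 FPKM in a group. Of the signalling and shedding lists up to 8 called genes per direction and 5 fixed targets were named, and of each marker list up to 4 called genes with the largest differences. Further genes of these lists were named outside this rule. Among them were Tradd, Fadd, Adam17, Adam10, Rhbdf2, Frmd8, Tek, Aif1 and the stromal markers called higher. Members and lists were chosen with earlier results of these data known. Promoters came from RefSeq (GRCm38.p6) and matched 34 of 44 members by symbol.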

Additional observations from a re-analysis of the deposited data

How the results depend on the processing

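Alternatives to the limma fit on log2(FPKM + 1) were compared for the counts of calls and for 26 genes named in the text. With 1 library left out, between 3 and 6 members were called higher and 0 lower in each of the 6 fits, against 705 to 1464 genes higher and 583 to 1281 lower over all genes. In the same fits between 1 and 7 signalling genes were higher and between 2 and 3 lower. Across the other alternatives, which tested between 16 and 40 members, between 5 and 9 members were higher and 0 lower. Over all genes these fits called between 1106 and 1807 higher and between 980 and 1675 lower. The edgeR fit on estimated fragments, which was chosen after seeing the data, called 9 of 22 tested members higher, beside 1512 of 14500 genes. The cause of these shifts was not tested.

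Same-numbered libraries had deviations from their group means that correlated at 0.02, 0.17 and 0.10, and 4 of 6 libraries correlated best with their own number. These values do not settle whether the numbers mark pairs, and the labels do not state it. The main test took no pairs. With the replicate number as a block 5 members were called higher, without Eda2r (adjusted p = 0.0782), and 0 lower, and 4 signalling genes were higher (Ikbkg, Nfkbia, Tab2 and Tnfaip3) and 2 lower. The block gave 1106 genes higher and 980 lower.

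Over single genes and alternatives 5 values changed sign, all of genes with fold changes near 0 that were not called. With 1 library left out, Fas ranged from -0.138 to 0.044, Ltbr from -0.0883 to 0.106 and Nfkb2 from -0.0316 to 0.0299 on the log2 scale. Depth limited members with few fragments most: for Cd27, Lta, Ltb and Tnfrsf13c, at most 6.75 fragments in a group, the 95% counting intervals of the ratio include both 0.5 and 1. Cd40, with 86.5 fragments in knockout and 90.75 in WT libraries, had a ratio of 0.931 (0.685 to 1.26).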

Other observations

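Many members lie in tandem in the genome, some with neighbours at unlike levels and some at like levels (GRCm38, coordinates of the deposited table). On chromosome 17 Tnf stands 1.16 kb from Lta and 3.08 kb from Ltb. Tnf averaged 11.3 FPKM in knockout and 4.83 FPKM in WT libraries, whereas Lta averaged 0.053 FPKM in knockout and 0.013 FPKM in WT libraries and Ltb 0.053 FPKM in both groups. In a further tandem on chromosome 17, Tnfsf9 averaged 3.49 FPKM in knockout and 4.42 FPKM in WT libraries, while its neighbour Cd70, 38.2 kb away, was at 0 in all 6 libraries. On chromosome 4 Tnfrsf4 and Tnfrsf18, 9.55 kb apart, averaged 0.357 and 0.58 FPKM in knockout libraries and 0.257 and 0.583 FPKM in WT libraries. On chromosome 6 Ltbr and Tnfrsf1a, both among the highest receptors, lie 35.5 kb apart. On chromosome 4 Tnfsf15 lies 86.2 kb from Tnfsf8, which averaged 0.003 FPKM in knockout and 0.02 FPKM in WT libraries, and Tnfrsf1b lies 20.3 kb from Tnfrsf8, at 0.117 FPKM in knockout and 0.08 FPKM in WT libraries. On chromosome 7 Tnfrsf26, Tnfrsf22 and Tnfrsf23 follow each other with gaps of 6.08 and 16.1 kb, at 0.643, 4.86 and 17.4 FPKM in knockout libraries and 0.197, 4.39 and 15.98 FPKM in WT libraries.

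Members on chromosome 11, which also carries Nlrp3, were looked at for their distance from the targeted gene. Tnfrsf13b lies 1.56 Mb from Nlrp3 and averaged 0.137 FPKM in knockout and 0.197 FPKM in WT libraries, too low for the test. Tnfsf12 and Tnfsf13 lie 10.1 Mb away and Ngfr 36.0 Mb away. Tnfsf12 was tested by limma and not called, while Tnfsf13 and Ngfr lay under the filter and could not be called by it. None of the 6 members called higher lies on chromosome 11, but with Tnfsf12 alone tested there this says nothing about distance from Nlrp3.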
